A study of Mus musculus with 12 samples.

Results

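The regions described here are 640 stretches of the mouse genome where a peak of H2AK119ub, histone H2A with a single ubiquitin on a lysine of its tail, was listed in 3 or 4 of the 4 libraries of the 1-1067 set. They were chosen by the presence of peaks in these lists and by no other measure. They were found by joining the peak intervals of the 4 lists on chromosomes 1 to 19, X and Y wherever intervals overlapped by 1 base or more, which gave 20620 merged regions. Of these, 18683 had a peak in 1 list, 1297 in 2 lists, 410 in 3 lists and 230 in all 4. The recurrent regions are thus 3.10% of the merged regions, a share that the rule itself sets.

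All libraries came from c-Kit+ bone marrow cells of mice, a fraction rich in haematopoietic stem and progenitor cells, with the genotype given as mock. In every condition, the vector controls included, the cells also received a retrovirus that expressed BAP1, so no library shows the mark without added BAP1. In the 1-1067 set the second retrovirus carried ASXL1 (1-1067), which ends at residue 1067, its forms 34DN or 36EQ (both charge-neutralized per the labels), or no insert (vector). In the 1-590 set it carried the shorter ASXL1 (1-590), its forms 10RA (condensation-impaired per the labels) or 25RA (condensation-defective per the labels), or no insert. The 8 H2AK119ub libraries were made by CUT&RUN, where chromatin bound by the antibody is cut free by a nuclease. The labels give each set as a batch of its own, so differences between the sets cannot be told apart from batch. Another 4 libraries were ChIP-seq of BAP1 and of ASXL1, each with 1-590 and with 10RA. With 1 library a condition, differences between conditions have no replicate check and could not be tested, and the Wilson 95% intervals below cover counting error only. In 3 lists (25RA, 34DN and 36EQ) the names of single peaks hold a code that differs from the title, and these libraries are identified by title.

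H2AK119ub is laid down by Polycomb repressive complex 1, whose RING-type ligase joins ubiquitin to H2A, and is removed by BAP1, a deubiquitinase that works with ASXL1 as its cofactor. The mark is best known at repressed developmental genes such as the Hox clusters, and variant forms of the complex are recruited to CpG-rich promoters by a CpG-binding protein, KDM2B. Truncating mutations of ASXL1 occur in myeloid malignancies.

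On the chromosomes used, the lists of the 1-1067 set held 6310 peaks in 1-1067, 5307 in 34DN, 6084 in 36EQ and 5742 in vector. Those of the 1-590 set were longer, with 32495 peaks in 1-590, 28228 in 10RA, 33863 in 25RA and 20124 in vector. The genome background, the lowest local background of a list in fragments per base, was 2.17, 2.59, 2.84 and 2.92 in 1-1067, 34DN, 36EQ and vector, and 2.06, 1.72, 1.86 and 0.908 in 1-590, 10RA, 25RA and the vector of the 1-590 set. The vector of the 1-590 set thus had the lowest background of the 8 libraries. Between 22.95% and 32.7% of peaks in the 1-1067 set reached a q of 0.05, against 86.0% to 96.0% in the 1-590 set.

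The sequences at 5 of these regions show the kinds of place that recurred. Regions are ranked throughout by the percentile of the caller's fold within a list, averaged over the 1-1067-set lists that hold the region. Each is given on the plus strand of GRCm39 with every CpG in capitals, as 200 bases at or near the region's centre, moved off annotated exons at promoters. The first is the highest-ranked recurrent region of all and lies between genes near the start of the chromosome 9 assembly. The next comes from the highest-ranked promoter region that all 4 lists of the 1-590 set also held, and the third from the highest-ranked CpG-rich promoter in all 4 lists of the 1-1067 set. The last 2 lead the regions that no list of the 1-590 set held, overall and at promoters.
chr9:3006977-3007176: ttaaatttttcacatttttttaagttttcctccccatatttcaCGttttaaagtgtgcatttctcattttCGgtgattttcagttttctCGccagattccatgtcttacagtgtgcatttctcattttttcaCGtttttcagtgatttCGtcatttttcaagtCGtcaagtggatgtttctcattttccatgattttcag
Kdm4a promoter, chr4:118037252-118037451: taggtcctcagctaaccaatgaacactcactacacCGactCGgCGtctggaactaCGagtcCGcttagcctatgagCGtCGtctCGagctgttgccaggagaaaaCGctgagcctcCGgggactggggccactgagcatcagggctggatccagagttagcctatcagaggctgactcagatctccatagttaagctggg
Ensa promoter, chr3:95532081-95532280: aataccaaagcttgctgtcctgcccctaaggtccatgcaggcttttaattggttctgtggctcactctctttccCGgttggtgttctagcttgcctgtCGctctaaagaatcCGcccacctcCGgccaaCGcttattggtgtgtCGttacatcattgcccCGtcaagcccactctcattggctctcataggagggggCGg
chr9:3032459-3032658: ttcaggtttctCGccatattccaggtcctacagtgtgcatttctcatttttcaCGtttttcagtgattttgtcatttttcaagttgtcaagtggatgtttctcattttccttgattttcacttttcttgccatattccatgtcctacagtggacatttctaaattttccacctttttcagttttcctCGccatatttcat
Rpl32 promoter, chr6:115785786-115785985: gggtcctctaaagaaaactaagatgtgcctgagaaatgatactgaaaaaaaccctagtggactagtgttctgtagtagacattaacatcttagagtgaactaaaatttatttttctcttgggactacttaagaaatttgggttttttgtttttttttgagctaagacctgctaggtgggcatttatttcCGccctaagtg

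The windows at Kdm4a and Ensa hold 10 and 8 CpGs in 200 bases, and the Rpl32 window holds 1. Both chromosome 9 windows are AT-rich, with a GC content of 33% and 36%, and are built of a short repeat that is known as mouse pericentromeric satellite. The 32-base words of their regions occurred at a median of 12 and 28 places in the assembly.

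Most recurrent regions lay at promoters, meaning that their midpoint was no more than 2 kb from the canonical transcription start site (TSS) of a GENCODE vM39 protein-coding gene. There were 461 such regions, or 72.0% (Wilson 95% interval 68.4 to 75.4), against 20.2% of all merged regions and 18.6% (18.04 to 19.1) of the 19980 regions in 1 or 2 lists. The share was nearly the same in regions of 4 lists, 73.0%, and of 3 lists, 71.5%, and was 49.8% in regions of 2 lists and 16.4% in regions of 1 list. A further 105 recurrent regions lay between genes, 65 in introns and 9 in exons away from a promoter. Recurrent regions were wider than the others, with a median of 594.5 bases against 286, which the joining of several peaks can itself produce. Chromosome 7 held 81 of them, or 12.7%, while it held 6.60% of all merged regions and 9.34% of coding TSSs, and 73 of the 81 were at promoters.

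At promoters the recurrent regions sat tightly around the TSS and leaned upstream. Their midpoints were at a median of -78 bases from the TSS (quartiles -231 and 56), and 93.9% lay within 500 bases of it. Promoter regions in 1 or 2 lists had a median of -11 bases (quartiles -291 and 316), and 60.0% lay within 500 bases. The midpoint was inside the transcribed side in 33.8% of recurrent promoter regions (29.7 to 38.3) and in 48.8% of the others (47.2 to 50.4).

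**Figure D1:**
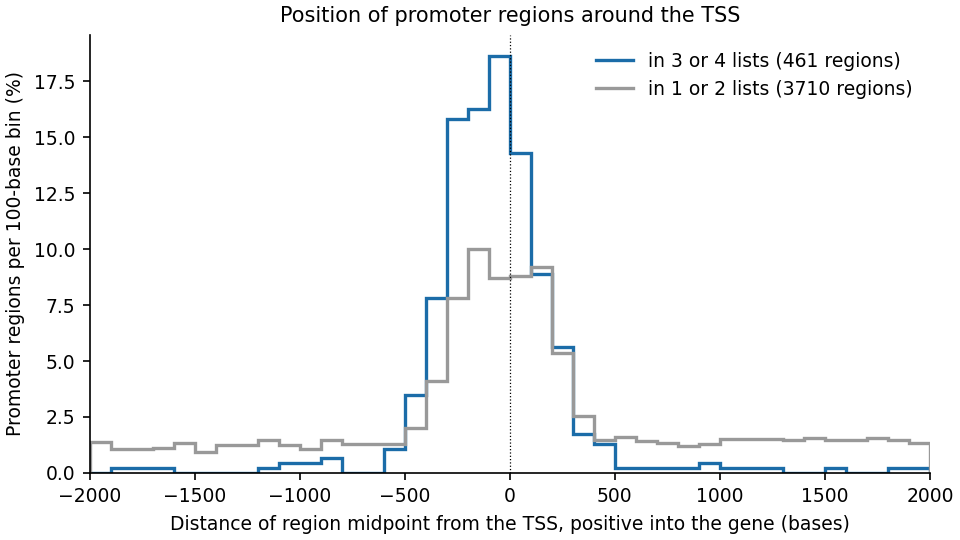
Share of promoter regions (y axis, %, per 100-base bin) by the distance of the region midpoint from the TSS (x axis, bases, positive into the gene), for the 461 recurrent regions in blue and the 3710 promoter regions in 1 or 2 lists in grey. The recurrent regions peak just upstream of the TSS with few beyond 500 bases, where the others form a flat floor on both sides.

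The recurrent regions were also rich in CpG. The ratio of observed to expected CpG had a median of 0.68 (quartiles 0.42 and 0.79) in recurrent regions and 0.19 (0.09 and 0.33) in regions of 1 or 2 lists, and the median GC content was 56.6% against 46.4%. A ratio of at least 0.6 with a GC content of at least 50%, the usual mark of a CpG island, was met by 57.3% of recurrent regions (53.5 to 61.1) and by 8.80% (8.42 to 9.20) of the others. Among promoter regions alone these shares were 74.8% (70.7 to 78.6) and 42.0% (40.4 to 43.6). Recurrent promoter regions also served the promoters of at least 2 coding genes more often, with 107 regions or 23.2% (19.6 to 27.3) against 12.7% (11.7 to 13.8). Away from promoters the 179 recurrent regions had a median ratio of only 0.23, and 12.3% were CpG-rich.

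**Figure D2:**
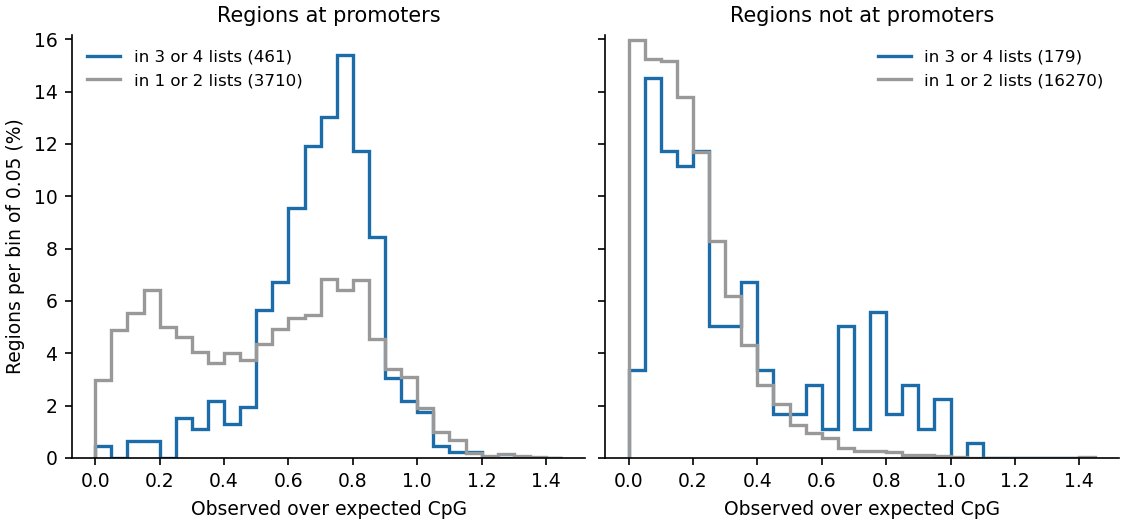
Share of regions (y axis, %, per bin of 0.05) by observed over expected CpG (x axis), at promoters (left) and elsewhere (right), for recurrent regions in blue and regions in 1 or 2 lists in grey. At promoters the recurrent regions form 1 peak near their median of 0.72, while the others also hold a CpG-poor group that the recurrent regions nearly lack.

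The promoters concerned served 571 of 21738 protein-coding genes, or 2.63%. Short sequence motifs were looked for on both strands from 250 bases upstream to 50 bases downstream of their TSSs, beside the same window of all coding genes. GGGCGG, the core of the GC box bound by SP factors, was present at 70.6% of the recurrent genes (66.7 to 74.2) and 42.5% of all genes. CCAAT, bound by NF-Y, was present at 59.7% (55.6 to 63.7) and 39.9%. CCGGAAG, the core of an ETS site, was present at 15.4% (12.7 to 18.6) and 10.3%. The shares for AAGATGG, in the element bound by YY1, were 9.63% (7.48 to 12.3) and 5.74%. TCTCGCG, the motif of ZBTB33, was found at 5.25% (3.70 to 7.401) and 3.01%, and GCGCATG, the core of the NRF1 site, at 6.48% (4.74 to 8.80) and 5.01%, where the interval includes the share of all genes. Set against promoter regions in 1 or 2 lists, in windows of 300 bases, the order differed: GCGCATG was in 6.29% of recurrent promoter regions and 3.07% of the others, and TCTCGCG in 6.07% and 2.99%. In those windows CCGGAAG was in 12.6% and 10.5%, and AAGATGG in 8.24% and 7.17%. GGGCGG was in 68.3% and 38.1% and CCAAT in 59.4% and 38.5%. The recurrent promoter regions were more often CpG-rich than those in 1 or 2 lists, as given above, and the part of base composition in these motif shares was not tested.

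Within the 1-1067 set the values at these regions chose them, so they are a description. The fold enrichment at the summit, as the authors' peak caller gave it, had a median of 3.58 in 1-1067, 3.59 in 34DN, 3.48 in 36EQ and 3.22 in vector. Recurrent regions made up 67, 76, 75 and 54 of the 100 peaks of highest fold in 1-1067, 34DN, 36EQ and vector, and between 8.59% and 9.85% of each whole list. To compare libraries, the whole number of fragments stacked at each summit was recovered from the fold and p of its peak and divided by the genome background of the library. On this scale the median was 7.85 in 1-1067, 6.19 in 34DN, 6.33 in 36EQ and 6.51 in vector.

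Over the 230 regions in all 4 lists, the median log2 ratio of that level was 0.28 for 1-1067 over vector (quartiles 0.04 and 0.52), -0.00 for 34DN over vector (-0.24 and 0.26) and 0.11 for 36EQ over vector (-0.15 and 0.34). 1-1067 was above vector at 178 of the 230, or 77.4%, 34DN at 115 and 36EQ at 131. Set against 1-1067, the median was -0.26 in 34DN and -0.20 in 36EQ. The library with the highest level was 1-1067 at 120 of the regions, 36EQ at 54, 34DN at 28 and vector at 28. These levels lay close together: the highest library was a median of 1.51 times the lowest, and at 19 regions it was at least 2 times. Peaks away from recurrent regions had median levels of 5.9992 in 1-1067, 4.6397 in 34DN, 4.9215 in 36EQ and 4.7997 in vector. 1-1067 thus stood above 34DN, 36EQ and vector there too, so its higher level was not particular to the recurrent regions. 1-1067 was also the library of lowest background in its set, and the part of depth in these levels and their ratios was not tested.

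Of the 410 regions in 3 lists, 74 lacked a peak in 1-1067 alone, 121 in 34DN alone, 62 in 36EQ alone and 153 in vector alone. The lists of 34DN and vector were also the 2 shortest. With each list cut by p to the length of the shortest, the counts were 76 for 1-1067, 111 for 34DN, 59 for 36EQ and 147 for vector. The cause of the differences between these counts was not tested. The regions that lacked only vector were at promoters in 78.4% of cases and those that lacked only 36EQ in 59.7%. The 3 highest-ranked regions missing from vector alone lay in an intron of Gphn, which encodes the synaptic scaffold gephyrin, at the promoter of Med16, a Mediator subunit, and at the promoter shared by Ranbp10 and Tsnaxip1. The Med16 region had 30 fragments at its summit in 1-1067, 18 in 34DN and 19 in 36EQ. Those missing from 34DN alone included the promoter of Rab11b, a small GTPase of recycling endosomes, with 22 fragments in 1-1067, 19 in 36EQ and 23 in vector.

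The recurrent regions were found again in the 1-590 set far more often than other regions. A peak overlapped 90.5% of them (87.9 to 92.5) in 1-590, 78.3% (74.9 to 81.3) in 10RA, 83.0% (79.9 to 85.7) in 25RA and 77.0% (73.6 to 80.1) in vector. Over all merged regions these shares were 22.5%, 15.9%, 18.5% and 15.0%, and over regions in 1 or 2 lists 20.3%, 13.9%, 16.4% and 13.0%. All 4 lists held 444 of the recurrent regions, or 69.4% (65.7 to 72.8), against 9.58% of all merged regions, and none held 45, or 7.03% (5.30 to 9.28), against 71.0%. The share held by all 4 climbed with the number of 1-1067-set lists, from 5.59% for 1 list through 37.5% for 2 and 64.6% for 3 to 77.8% for 4. The values just outside and just inside the rule are thus 37.5% for 2 lists and 64.6% for 3.

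**Figure D3:**
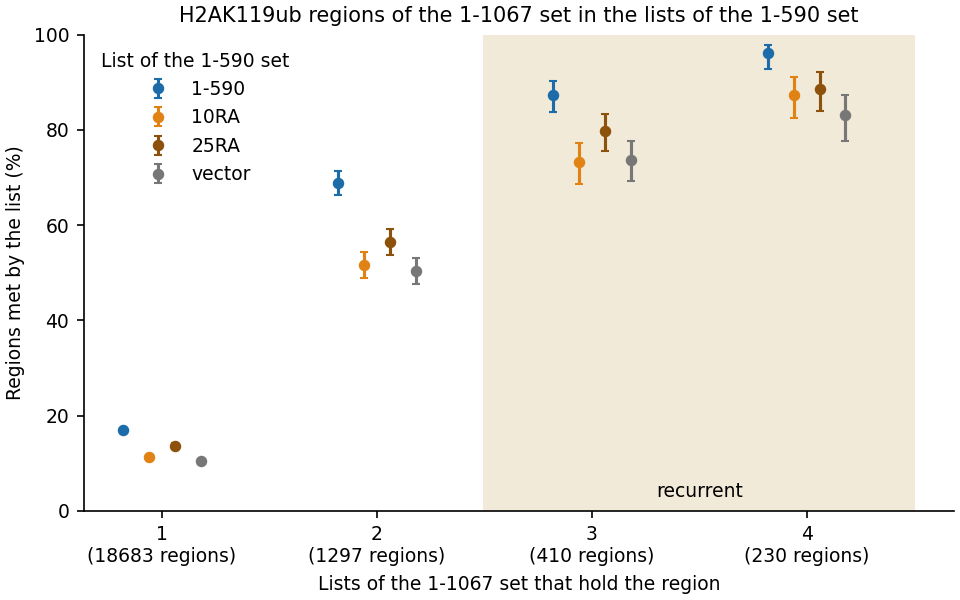
Share of merged H2AK119ub regions (y axis, %) that overlap a peak of each list of the 1-590 set, by the number of 1-1067-set lists that hold the region (x axis, with the number of regions); points are shares and bars Wilson 95% intervals. In each column 1-590 is highest, and the shaded recurrent regions reach from 73.2% to 96.1%.

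The 196 recurrent regions outside that core split unevenly. Besides the 45 held by none, no region was missing from 1-590 alone, 31 were missing from 10RA alone, 6 from 25RA alone and 30 from vector alone. Another 28, or 4.38% of the recurrent regions, had a peak in 1-590 and in no other list of its set. That share was near the 4.47% of regions in 1 or 2 lists with the same pattern. Among regions in 1 or 2 lists, 40 were missing from 1-590 alone, 325 from 10RA alone, 162 from 25RA alone and 322 from vector alone. The part of list length in these counts was not tested.

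How widely a recurrent region was shared went with what it was. Of the 444 in all 4 lists of the 1-590 set, 84.7% (81.0 to 87.7) were at promoters, and their median CpG ratio was 0.72. With 3, 2 and 1 lists the promoter share was 67.2%, 44.2% and 31.7%, and the median ratio 0.59, 0.53 and 0.28. Of the 45 in no list, 17.8% (9.29 to 31.3) were at promoters, with a median ratio of 0.16. Regions in 1 or 2 lists followed the same gradient, with promoter shares of 80.2% for all 4 lists and 8.19% for none. Their median ratios were 0.73 and 0.16. The promoter share of the recurrent regions was thus close to that of other regions once both were in all 4 lists of the 1-590 set.

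The recurrent regions were among the stronger peaks there. By the fold of the authors' caller, their peaks stood at a median of the 94.7th percentile of the 1-590 list, the 93.7th in 10RA, the 93.4th in 25RA and the 90.0th in vector. The peaks at regions in 1 or 2 lists stood at percentiles 79.8, 77.1, 75.8 and 74.8. At promoters alone, recurrent regions stood at 95.9, 94.5, 94.4 and 90.4. Promoter regions in 1 or 2 lists stood at 89.4, 86.5, 88.0 and 83.4, so the gap was smaller there. In multiples of background the summits at recurrent regions had a median of 18.9 in 1-590 (quartiles 14.1 and 25.7), 12.2 in 10RA (9.30 and 16.3), 12.9 in 25RA (10.2 and 16.7) and 20.9 in vector (15.4 and 26.4).

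At the 444 regions in all 4 lists the summits of 10RA and 25RA, in multiples of background, were lower than those of vector and of 1-590. The median log2 ratio over vector was 0.01 in 1-590 (quartiles -0.27 and 0.26), -0.71 in 10RA (-0.99 and -0.45) and -0.60 in 25RA (-0.82 and -0.34). 10RA was above vector at 20 of the 444 regions, 25RA at 34 and 1-590 at 225. Over 1-590, the median was -0.70 in 10RA and -0.61 in 25RA. The same ratios at the 1531 regions in 1 or 2 lists of the 1-1067 set were -0.12 in 1-590, -0.73 in 10RA and -0.60 in 25RA over vector, and -0.61 in 10RA and -0.47 in 25RA over 1-590. The lower summits of 10RA and 25RA were thus present in both groups of regions, and the medians of the groups differed by less than the spread between their quartiles. Peaks away from recurrent regions had median levels of 9.23 in 1-590, 8.72 in 10RA, 8.60 in 25RA and 13.2 in vector. The vector thus stood above 10RA and 25RA there too. It also had the lowest background, and the part of depth in these ratios was not tested. Per the labels the data were scaled by spike-in reads, a scale that ratios to each library's own background do not carry.

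**Figure D4:**
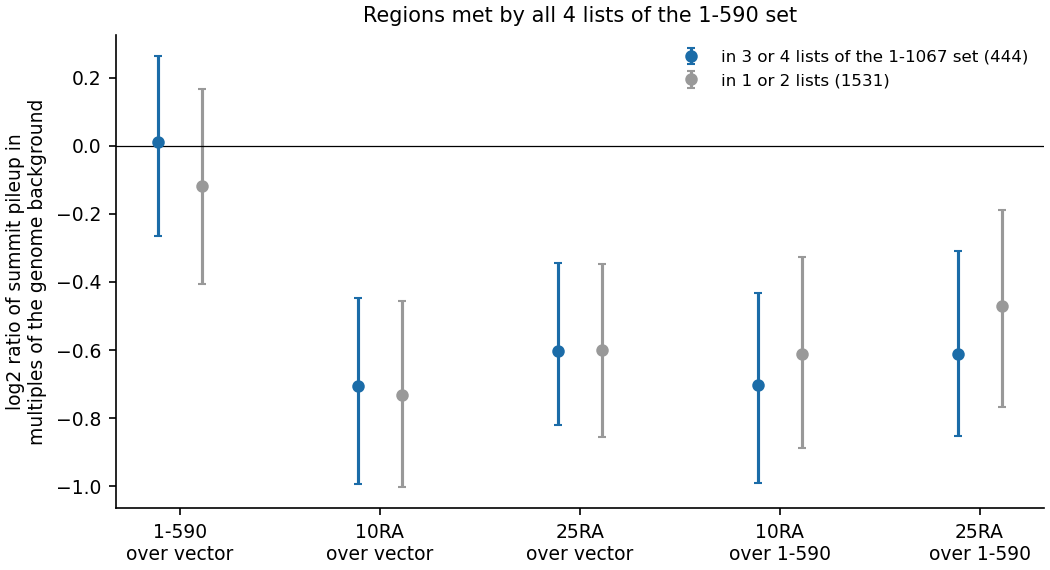
Median log2 ratio (y axis) of summit fragments in multiples of each library's genome background, for 5 pairs of libraries of the 1-590 set (x axis), at the 444 recurrent regions in blue and the 1531 regions of 1 or 2 lists in grey that all 4 lists held; bars span the quartiles over regions, not replicates. 10RA and 25RA lie below 0 against both vector and 1-590 in both groups of regions, and 1-590 over vector lies near 0.

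The split by position was larger. Recurrent regions at promoters had a median log2 ratio of 10RA over 1-590 of -0.76 (376 regions, quartiles -1.02 and -0.49). Those elsewhere had -0.43 (68 regions, quartiles -0.63 and -0.05), so the quartile ranges overlapped. For 25RA over 1-590 the medians were -0.63 and -0.32, and for 1-590 over vector 0.04 and -0.15. Against vector the split was smaller, with -0.72 at promoters and -0.62 elsewhere in 10RA, and -0.62 and -0.48 in 25RA.

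Among promoter regions in all 8 lists, the highest-ranked lay at Kdm4a, which encodes a histone H3 lysine demethylase and whose sequence is given above, at chromosome 4, 118036783 to 118037756. Its summit held 52 fragments in 1-590, 29 in 10RA, 27 in 25RA and 25 in vector of the 1-590 set. In the 1-1067 set it held 40 in 1-1067, 24 in 34DN, 33 in 36EQ and 21 in vector. In multiples of background it was at 18.5 in 1-1067, 9.28 in 34DN, 11.6 in 36EQ and 7.20 in vector, so that vector was lowest, and at 25.3, 16.8, 14.5 and 27.5 in 1-590, 10RA, 25RA and vector of the 1-590 set, where vector was highest.

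The next regions were at Ensa, an inhibitor of the phosphatase PP2A in mitosis, Hdgfl2, a PWWP-domain chromatin protein, and Rab40c, a small GTPase that joins a ubiquitin ligase. The Hdgfl2 region at chromosome 17, 56385988 to 56386657, had 73 fragments in 1-590, 30 in 10RA, 46 in 25RA and 26 in vector, and 37 in 1-1067, 27 in 34DN, 32 in 36EQ and 24 in the vector of its set. The Rab40c region had 77 in 1-590, 26 in 10RA, 29 in 25RA and 22 in vector, and between 23 and 29 in every library of the 1-1067 set. After these came Ap1m1, a subunit of the AP-1 clathrin adaptor, the shared promoter of Orc6, of the origin recognition complex, and Vps35, of the retromer, then Alg14, of N-glycan synthesis, and Aldh4a1, of proline breakdown. At each of these 8 regions the level in 10RA, in multiples of background, was below 1-590 and below vector. The fragments given for Hdgfl2 and Rab40c are not divided by background.

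**Figure D5:**
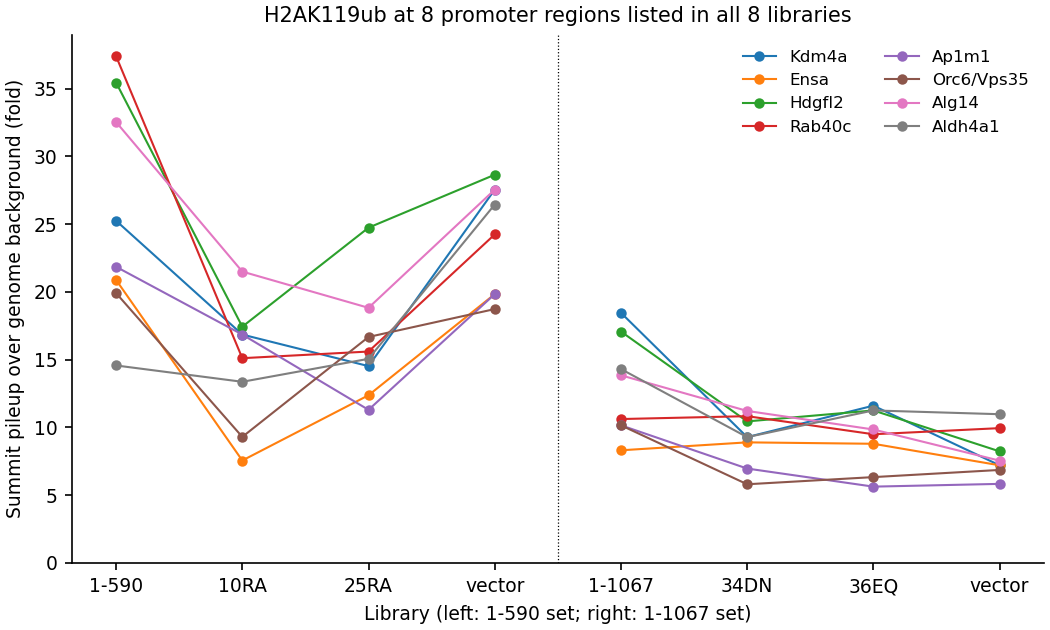
Summit fragments over the genome background (y axis, fold) at the 8 highest-ranked promoter regions listed in all 8 H2AK119ub libraries (x axis: 1-590 set left, 1-1067 set right), 1 line per region, 1 library per condition. Every region is lower in 10RA than in 1-590 and in vector, and all but Ensa and Rab40c are highest in 1-1067 within the right-hand set.

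Genes of 15 lists, among them developmental and blood-cell programmes, were looked up for a recurrent region at their promoter. No recurrent region lay at the promoter of any of 39 Hox genes, 32 regulators of stem and progenitor cells and leukaemia, 24 myeloid, 19 lymphoid or 11 mast cell and basophil genes. The same was true of 47 developmental regulators of other lineages, 25 Polycomb subunits, 12 genes of the BAP1 complex and its partners, 25 cytokine and JAK-STAT genes and 19 interferon-stimulated genes. Over all 15 lists, 7 of 370 genes had one, or 1.89% (0.919 to 3.85), an interval that includes the 2.63% of all coding genes. The 15 lists also hold ribosomal protein, MYC and growth, and cell cycle genes, so this share is not that of the programmes alone. For 0 of 39 Hox genes the interval runs to 8.97%, so their lack of a recurrent region is not set apart from that background.

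In the 1-590 set, a promoter peak was held by 54.7% of all coding genes in 1-590, 40.7% in 10RA, 47.2% in 25RA and 40.0% in vector, and in the 1-1067 set by 8.89% in 1-1067, 6.76% in 34DN, 8.35% in 36EQ and 7.30% in vector. These shares are the background of the counts that follow. Of 39 Hox genes, 24 had a promoter peak in 1-590, 28 in 10RA, 26 in 25RA and 15 in vector, while in the 1-1067 set 3 had one in 1-1067, 1 in 34DN, 0 in 36EQ and 1 in vector. Of 47 developmental regulators, 22, 26, 24 and 19 had one in 1-590, 10RA, 25RA and vector, and at most 1 in any list of the 1-1067 set. The lists were chosen with earlier results known, and their shares were not tested against that background. Bap1 had no peak in the 1-1067 set and 1 in each list of the 1-590 set. At Asxl1, peaks were listed in 1-590 and 25RA alone, and at Cdkn2a, which encodes the cell cycle inhibitors p16 and p19, in 1-590, 10RA and 25RA. Among the Hoxa genes, Hoxa3 and Hoxa13 each had a peak in the 1-1067 library and in no other of its set. Hoxa13, a posterior patterning gene, was the only Hoxa gene with a peak in all 4 lists of the 1-590 set, and Hoxa5 and Hoxa7 had none.

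The listed genes with a recurrent promoter region included Zfpm1, of 20 erythroid and megakaryocyte genes, Col1a1, of 14 stromal and endothelial genes, Cdkn2d, of 14 cell cycle inhibitors and tumour suppressors, Mcm4, of 20 MYC and growth genes, and the ribosomal protein genes Rpl13a and Rpl32. Peaks of a chromatin mark do not measure expression, so the labelled cell type could not be checked against its markers. Zfpm1, the FOG-1 cofactor of GATA1, had 24 fragments at its summit in 1-1067, 24 in 34DN and 43 in 36EQ and no peak in vector. In the 1-590 set it had 75 in 1-590, 37 in 10RA, 56 in 25RA and 35 in vector. The fragments given here are not divided by background, which was 2.06 in 1-590 and 0.908 in the vector of its set. Cdkn2d, an inhibitor of CDK4 and CDK6, had 14, 14 and 17 in 1-1067, 34DN and 36EQ, no peak in vector, and 43, 19, 20 and 18 in 1-590, 10RA, 25RA and vector of the 1-590 set. Col1a1, a collagen gene of stromal cells, had 28 in 1-1067, 21 in 34DN and 26 in 36EQ and none in vector, and was held by 1-590 and vector but not by 10RA or 25RA in the 1-590 set. Zfpm1, Cdkn2d, Col1a1 and Rpl13a each lacked a peak in the vector of the 1-1067 set alone. Of all 640 recurrent regions, 153 did so. Mcm4 instead lacked a peak in 1-1067, and Rpl32 was in all 4 lists of that set.

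Of 50 ribosomal protein genes, 3 had a recurrent region, an interval of 2.06% to 16.2% that includes the 2.63% of all coding genes. Rpl13a had 14 fragments in 1-1067, 13 in 34DN and 16 in 36EQ and no peak in vector, and 41 in 1-590, 19 in 10RA, 27 in 25RA and 14 in vector of the 1-590 set. Mcm4, a subunit of the replicative helicase, shares its promoter with Prkdc, of DNA repair. It had 18 fragments in 34DN, 12 in 36EQ and 15 in vector, no peak in 1-1067, and 37 in 1-590, 11 in 10RA, 17 in 25RA and 12 in vector of the 1-590 set. As for Zfpm1, the fragments of Rpl13a and Mcm4 are not divided by background.

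Some gene families were picked after the values were seen, because members had recurrent regions, so their shares support nothing beside the 2.63% of all coding genes. Recurrent regions lay at 7 of 48 proteasome genes, or 14.6%, among them Psma1, Psmd1 and Psmd3, and at 4 of 30 Mediator genes, or 13.3%, Med11, Med16, Med19 and Med20. They lay at 4 of 15 subunits of the NuRD remodelling complex, or 26.7%, Gatad2a, Gatad2b, Mbd3 and Mta1. They also lay at 6 of 39 centrosomal Cep genes, or 15.4%, and at 4 of 39 genes of respiratory complex I, or 10.3%. Of 419 Zfp zinc finger genes 13 had one, or 3.10%, and of 348 solute carriers 8, or 2.30%, both near the share of all coding genes. None of 1193 olfactory receptor genes did, with an interval that runs to 0.321%.

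The highest ranks of all belonged to regions away from promoters. The 10 highest-ranked regions in all 4 lists included none at a promoter. A region in an exon of Lars2, which charges leucine onto mitochondrial tRNA, at chromosome 9, 123290879 to 123291249, held 116 fragments in 1-1067, 116 in 34DN, 162 in 36EQ and 120 in vector. In the 1-590 set it held 287 in 1-590, 156 in 10RA, 135 in 25RA and 125 in vector. A region between genes at chromosome 2, 98496904 to 98497655, held 290, 342, 355 and 301 fragments in 1-1067, 34DN, 36EQ and vector, and 371, 282, 211 and 161 in 1-590, 10RA, 25RA and vector. Both also met a peak in each of the 4 ChIP lists, with 150 to 200 fragments at Lars2 and 362 to 433 at chromosome 2. None of these fragments is divided by background, which was 2.06 in 1-590 and 0.908 in the vector of its set.

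The region whose sequence opens the list above, chromosome 9, 3006754 to 3007401, had 61 fragments in 1-1067, 73 in 34DN, 75 in 36EQ and 57 in vector. Of the 1-590 set only the 1-590 list held it, with 42. It had 135 and 187 in the BAP1 libraries with 1-590 and 10RA and 225 and 162 in the ASXL1 libraries with 1-590 and 10RA. In all, 4 recurrent regions lay between bases 3002058 and 3032943 of chromosome 9, and none of these was in all 4 lists of the 1-590 set.

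The 5 widest regions each met a peak in all 4 ChIP lists as well. Of these, 2 lay side by side on chromosome 17, at 40154097 to 40157660 and at 40157891 to 40159604, over and beside the ribosomal RNA gene Rn18s-rs5. The wider held 402 fragments in 1-1067, 315 in 34DN, 399 in 36EQ and 449 in vector, and 302, 787, 775 and 572 in 1-590, 10RA, 25RA and vector of the 1-590 set. In multiples of background it was the highest summit at a recurrent region in every H2AK119ub library but 34DN and 1-590. The others lay at the promoter of Hjurp, the chaperone of the centromeric histone CENP-A, on chromosome Y, and in an intron of Sfi1, a centrosome gene. Ribosomal RNA genes are known to be repeated many times in the mouse genome, while the words of both regions stand at 1 place in the assembly, and the part of copy number in these summits was not tested.

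Regions met by ChIP peaks made up a smaller share at promoters than elsewhere. Any of the 4 ChIP lists met 70 of the recurrent regions, or 10.9% (8.75 to 13.6), against 1.32% of all merged regions. BAP1 with 1-590 met 8.75% (background 0.611%), BAP1 with 10RA 9.69% (0.868%), ASXL1 with 1-590 10.2% (0.936%) and ASXL1 with 10RA 9.38% (0.655%), with intervals that overlap one another. At promoters, 6 of 461 regions met a ChIP peak, or 1.302% (0.598 to 2.81), against 0.360% of all merged promoter regions. Among recurrent regions not at promoters 64 of 179 did, or 35.8% (29.1 to 43.0), against 1.57% of all merged regions not at promoters. The 6, named after their values were seen, lie at Sfi1, Elobl, Hjurp, Tmem267, Spata31e2 and Gm47996. Of the 70, 51 met a peak in all 4 ChIP lists, and 34 of the 42 recurrent regions whose sequence stands at more than 1 place in the assembly were among the 70. Regions of such repeated sequence were 6.56% of the recurrent regions and 3.29% of all merged regions. The labels' descriptions give the ChIP antibody as against BAP1 or ASXL1, and their protocols give it as against the HA tag.

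Where the ChIP peaks were, they were strong. The recurrent regions held 30 of the 100 highest-fold BAP1 peaks with 1-590 and 28 with 10RA, and 28 of the 100 highest-fold ASXL1 peaks with 1-590 and 30 with 10RA. In the intron of Sfi1 at chromosome 11, 3122290 to 3122751, BAP1 had 128 fragments with 1-590 and 194 with 10RA and ASXL1 207 and 89, while the H2AK119ub summit held 30, 48, 55 and 52 in 1-1067, 34DN, 36EQ and vector. The same intervals thus led lists made with another antibody and another method, and what the ChIP peaks there measure was not tested.

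The 45 recurrent regions that no list of the 1-590 set held were mostly of low CpG content, with a median ratio of 0.16. The 14587 regions of 1 or 2 lists that no list of the 1-590 set held also had a median of 0.16. The 45 included 4 in all 4 lists of the 1-1067 set, 8 at promoters, 17 met by a ChIP peak and 11 of repeated sequence, with 26 neither met by ChIP nor repeated. A ChIP peak thus met 37.8% of the 45, against 1.15% of the 14587. Of the 14587, 575 were of repeated sequence. The Rpl32 promoter, printed above, was the highest-ranked at a promoter and lay at chromosome 6, 115785735 to 115786031, with a CpG ratio of 0.32. It had 17 fragments in 1-1067, 19 in 34DN, 14 in 36EQ and 23 in vector, and no peak in any of the 4 longer lists of the 1-590 set. Next came Tmt1a3, a methyltransferase-like gene, Smtn, the smooth muscle protein smoothelin, the promoter shared by Shkbp1 and Gm20479, and that shared by Polr1g, of RNA polymerase I, and Ppp1r13l, which encodes the p53 inhibitor iASPP. The Smtn region had 23 fragments in 1-1067, 19 in 34DN and 28 in 36EQ and no peak in vector. Shkbp1 had 23, 15 and 23 there and Polr1g 26, 12 and 22, again with no peak in vector.

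Away from promoters these 45 included a region 17 kb from Ly6g, a neutrophil surface antigen, with 15 fragments in 1-1067, 14 in 34DN and 18 in vector, and 1 in an intron of H60b and Raet1e, both of which encode ligands of the receptor NKG2D. On chromosome 4, 5 lay nearest to Zfp991, Zfp992 or Zfp993. Each of those 5 met at least 1 ChIP peak, and 4 were of repeated sequence.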

How the data were processed

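Each deposited list holds peaks of a single library, made with MACS3 3.0.3, Picard, SAMtools, Bowtie2 2.5.4 and fastp 0.24.0 on mm39, per the submitters' processing notes. Use of a control library is not given in the sources used here. Per the labels, CUT&RUN data were normalized to E. coli spike-in reads. The deposited fold is the ratio of a summit to its local background by the authors' caller, with the deposited −log10 p and −log10 q beside it. The deposited score is the whole part of a multiple of the −log10 p and was not used further. Every list reaches down to p of 0.001.

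Fold and −log10 values were used within a list to rank or filter. Whole fragments per summit were recovered from fold and p, read in the form MACS3 uses, for 99.98% to 100% of peaks in each list, to within 0.001 in −log10 p. Levels between libraries are these fragments over the lowest local background of the library. Fragments given without that division are not scaled for depth. No region was excluded as high-signal. Copies are the median genome count of a region's 32-base words, and promoter shares used GENCODE vM39. Where a region met several peaks, the 1 of highest fold was used. Merging, overlap, copy counts and recovery were tested on simulated data, with bedtools 2.31.1 as a check. Python 3.11.15, pandas 2.3.3, pysam 0.24.0 and scipy 1.17.1 were used. No column of per-sample values was left unmapped. The members, gene lists and alternatives were chosen with earlier results of these data known.

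Regions named are the 10 highest-ranked in all 4 lists, the 8 highest promoter regions in all 4 lists of the 1-590 set, the 8 highest in none of them with the 5 highest at promoters, the 3 highest missing from each library, the 5 widest, up to 8 met by most ChIP lists, listed genes, and always the Hoxa genes, Cdkn2a, Asxl1 and Bap1. Not every region under this rule is described, and 1 item is not reported here.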

Additional observations from a re-analysis of the deposited data

How the results depend on the processing

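Of 100 alternative values 59 stayed within the limits set and 41 moved. The limits were the Wilson interval for shares, the quartiles over regions for ranks and ratios, and a fixed fold for counts. Quartiles over regions are wide, so ranks and ratios could shift much before they counted as moved. Only the ratios could change sign, and 0 did. The number of recurrent regions was 230 with a peak in all 4 lists, 1937 in 2 or more, 312 with peaks of q of 0.05 or less and 367 with −log10 p of at least 5. Leaving out 1 library and asking for the other 3 gave 290 to 383: 304 without 1-1067, 350 without 34DN, 290 without 36EQ and 383 without vector. Asking for all 4 lists kept 25 of the 43 named regions. With q of 0.05 or less, 36 regions lacked 1-1067 alone, 54 34DN, 28 36EQ and 86 vector, in the same order as in the report.

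The shares met in the 1-590 set moved as follows, in the order 1-590, 10RA, 25RA and vector. Regions in all 4 lists gave 96.1%, 87.4%, 88.7% and 83.0%, with 77.8% in all 4 and 1.74% in none. Peaks of q of 0.05 or less gave 92.9%, 84.0%, 86.2% and 80.8%, with 75% in all 4 and 4.81% in none. Overlap over 50% of the shorter interval gave 73.6% in vector and 64.5% in all 4. A summit inside the region gave 86.1%, 73.9%, 78.1% and 69.7%, with 59.1% in all 4. Lists shortened by p to the shortest of the set gave 73.9% in 10RA, 78.75% in 25RA and 65.3% in all 4. Regions with no ChIP peak, an alternative chosen after seeing the data, gave 93.5% in 1-590, 86.0% in 25RA and 81.1% in vector, with 73.2% in all 4, 4.91% in none and 79.8% at promoters. The ChIP shares, the ranks and the ratios moved by less than these limits under each alternative run for them. The causes were not tested. No paired analysis was possible because each condition had 1 library. The alternative that leaves out soft-masked sequence was not run. The genome background ran from 0.908 fragments in the vector of the 1-590 set to 2.92 in the vector of the 1-1067 set, and the part of depth in the shares was not tested.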

Other observations

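Among the 230 regions in all 4 lists, 1 stood apart in the 2 altered forms of the 1-1067 set. Between genes on chromosome X, 53911977 to 53913098, the summit held 179 fragments in 34DN and 176 in 36EQ, against 63 in 1-1067 and 42 in vector. In multiples of the genome background these were 69.2 in 34DN and 61.9 in 36EQ, against 29.1 in 1-1067 and 14.4 in vector. The highest library was 4.81 times the lowest, where the next region reached 2.58 times and the median over 230 regions was 1.51 times. In the 1-590 set the same region held 55 fragments in 1-590, 42 in 10RA, 33 in 25RA and 18 in vector. In multiples of background these were 26.7, 24.4, 17.7 and 19.8. The sequence stands at 1 place in the assembly, and the ASXL1 lists with 1-590 and 10RA also held a peak there. Regions missing from a list of the 1-1067 set were not compared in this way. Levels in regions of 1 or 2 lists reached 44.5 in 34DN and 38.0 in 36EQ, against 14.3 in 1-1067 and 12.3 in vector.

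Promoters were among the next regions by that span. At the one shared by Cbx5, which encodes the heterochromatin protein HP1α, and Hnrnpa1, the summit held 29 fragments in 1-1067, 14 in 34DN, 20 in 36EQ and 23 in vector. At G3bp1, a core protein of stress granules, it held 18 in 1-1067, 9 in 34DN, 19 in 36EQ and 17 in vector, and in the 1-590 set 51 in 1-590, 19 in 10RA, 18 in 25RA and 21 in vector. In both, 34DN was the lowest library in multiples of background. The other promoters among the 10 regions of widest span were Kdm4a (2.56 times), Zfp619 (2.36) and Aph1b (2.34), each lowest in vector, and Erh with Slc39a9 (2.28), lowest in 36EQ. These regions were picked out after their values were seen.

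On sequences outside chromosomes 1 to 19, X and Y, 38 of 62 merged regions were in 3 or 4 lists of the 1-1067 set, on 4 sequences, and each of the 38 met a ChIP peak.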
